A study of Rattus norvegicus with 50 samples.

Results

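Lung tissue of unexposed male Fischer F344 rats was compared between the 4-week and the 1-week time point of a study in which other rats inhaled nickel subsulfide. The comparison used the 5 control arrays of each time, 10 of the study's 50 arrays, chosen by their titles. It covered the 19063 of 31042 probe sets that carry exactly 1 gene symbol, and 1 probe set was used for each of 13438 genes. The 4-week controls breathed an atmosphere with 0 mg/m3 of nickel subsulfide on 20 exposure days over 4 weeks, 5 days in each week and 6 hours on each day. The 1-week controls breathed the same atmosphere for 5 exposure days. The other 40 arrays came from rats exposed to 0.04, 0.08, 0.15 or 0.60 mg/m3 for 4 weeks or 1 week, again 5 arrays a group.

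All rats were 7 to 8 weeks old on receipt. Their age at sampling is not given in the labels. The 4-week controls had spent more days in the study than the 1-week controls and were taken at another time, so age, time in the study, the day of sampling and any batch in which samples or arrays were handled cannot be told apart. Each group had 13 rats, of which 5 went to lavage and histology and 8 to expression and nickel burden, and the 5 samples with the best RNA quality were put on arrays. RNA came from distal airway tissue dissected from the right caudal lobe, and 50 to 150 ng of it was labelled. Values are log2 intensities, a change is the mean of the 4-week controls minus the mean of the 1-week controls on that scale, and errors of changes are standard errors of the model.

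The tissue label was checked against lung markers. *Sftpc*, a surfactant protein of alveolar type 2 cells, averaged 13.53 ± 0.02 in 4-week controls and 13.39 ± 0.11 in 1-week controls (SD, n = 5 each). *Scgb1a1*, the main secretory protein of airway club cells, averaged 13.63 ± 0.08 in 4-week controls and 13.65 ± 0.03 in 1-week controls. *Ager*, a membrane receptor of alveolar type 1 cells, averaged 11.18 ± 0.20 in 4-week controls and 11.70 ± 0.28 in 1-week controls, and *Foxj1*, the transcription factor of ciliated cells, 9.54 ± 0.20 in 4-week controls and 10.42 ± 0.21 in 1-week controls. Airway epithelium, the tissue named by the label, and alveolar epithelium were both represented on all 10 arrays. In such a tissue sample fewer cells of a type and less RNA per cell cannot be told apart.

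Rats of this age are young adults that are still growing. Their lungs hold elastic fibres and collagen laid down by fibroblasts and smooth muscle, a muscular coat around airways and vessels, and lymphoid tissue along the bronchi in which chemokines bring B cells, T cells and dendritic cells together. In rodents a sleeve of heart muscle also surrounds the large pulmonary veins, so that heart muscle transcripts belong to the normal lung.

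The controls of the times differed in most genes. Of 13438 genes, 9873 (73.5%) passed the test at an adjusted p under 0.05 in limma, a linear model fitted to all genes. The 4-week controls were higher in 4734 genes (35.2%) and lower in 5139 genes (38.2%), and the median change of all genes was -0.04. The 5 arrays of each time did not overlap in 8571 genes (63.8%), with the 4-week controls above in 4134 (30.8%) and below in 4437 (33.0%). Of these genes 8490 (63.2% of all) were also called. When the test asked for a change beyond 1.5-fold, 4486 genes (33.4%) passed, 1865 higher (13.9%) and 2621 lower (19.5%) in the 4-week controls. These shares are the background for every gene list described here, and a list whose shares are near them does not stand out.

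Whole-array measures moved too. The median of all probe sets was 5.49 ± 0.03 on arrays of 4-week controls and 5.43 ± 0.03 on those of 1-week controls (SD, n = 5 each, exact two-sided permutation p = 0.0397, adjusted p = 0.0397 over 2 measures). The interquartile range was 4.19 ± 0.04 in 4-week controls and 4.09 ± 0.03 in 1-week controls (exact permutation p = 0.0159, adjusted p = 0.0317), where 0.00794 is the smallest p that 5 arrays against 5 can give. The difference in medians no longer passed without 1-week replicate 3, or without 4-week replicate 2, 3, 4 or 5, with adjusted p of 0.0635 to 0.0952 by the exact test. With each array centred on its median, 9936 genes were called, 4496 higher and 5440 lower in the 4-week controls, and the median change of all genes was -0.09. The part of these measures in the gene results was not tested otherwise.

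A position was computed for each array on the line through the means of both control groups over all genes, with 0 at the 1-week and 1 at the 4-week controls and each control array placed by means made without it. The 4-week controls lay at 0.951, 1.035, 0.977, 0.974 and 1.014, against -0.040, 0.128, -0.241, -0.033 and 0.219 for the 1-week controls. The 4-week controls were close together (SD 0.034), whereas the 1-week controls were spread (SD 0.177), with replicate 5 nearest to the 4-week controls and replicate 3 farthest. Leaving out each of the 10 arrays in turn gave between 9503 and 9840 called genes.

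**Figure D1:**
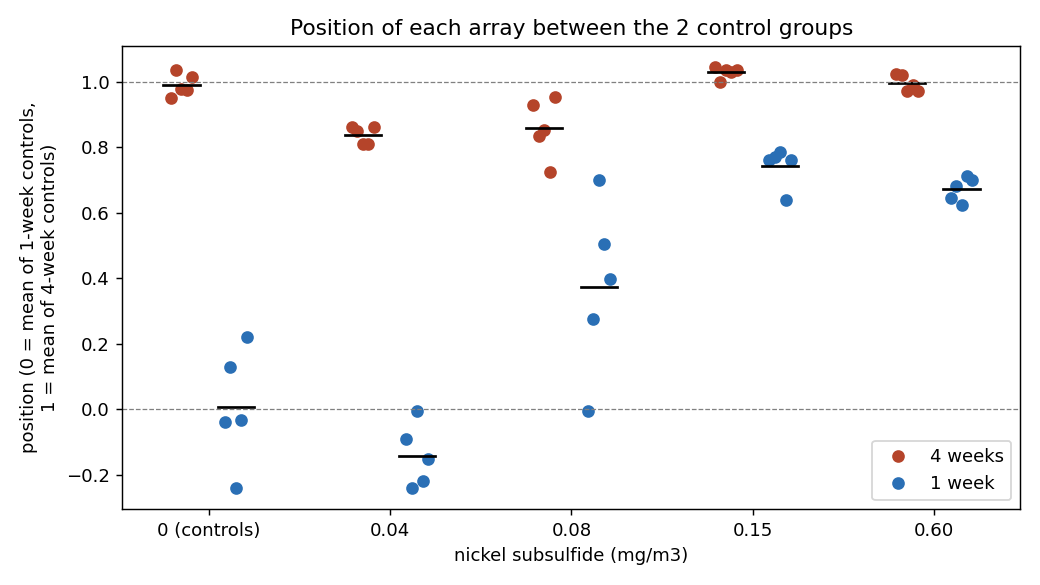
Position of each of the 50 arrays between the control groups, on an axis with no unit where 0 is the mean of 1-week controls and 1 the mean of 4-week controls, against the nickel subsulfide concentration. Points are arrays, bars are group means (n = 5), and colours separate 4 weeks from 1 week. The 1-week groups at 0.15 and 0.60 mg/m3 lay at 0.743 and 0.672, nearer to the 4-week than to the 1-week controls.

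The largest fall was that of *Ccl19*, and the 12 largest included genes of lymphocytes and of smooth muscle. Genes ranked by size were taken only from called genes whose arrays did not overlap between the times, 63.2% of all genes. *Ccl19*, a chemokine that draws T cells and dendritic cells into lymphoid tissue, read 7.43, 7.56, 7.52, 7.48 and 7.63 in 4-week controls, against 11.47, 10.93, 11.85, 11.17 and 9.88 in 1-week controls. No array of one group reached the other, and the change was -3.53 ± 0.34 (limma adjusted p = 1.34e-12), which leaving out single arrays moved between -3.83 and -3.34. *Ptprcap*, which binds the phosphatase CD45 in lymphocytes, changed by -2.71 ± 0.25, and *Sit1*, an adaptor that dampens T cell receptor signals, by -2.54 ± 0.30. *Sit1* read 5.35 to 5.83 in 4-week controls and 7.07 to 9.08 in 1-week controls, with the lowest 1-week value in replicate 5.

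*Des*, the intermediate filament desmin of muscle cells, read 7.59, 7.43, 7.34, 7.40 and 7.32 in 4-week controls, against 10.67, 9.83, 11.01, 10.63 and 9.67 in 1-week controls. The groups lay apart by more than the range of either one, and the change was -2.95 ± 0.23 (limma adjusted p = 5.09e-15). *Actg2*, an actin of smooth muscle, fell by 2.52 ± 0.20 and *Cnn1*, the smooth muscle protein calponin, by 2.33 ± 0.23. *Actg2* read 8.10 to 8.41 in 4-week controls and 10.21 to 11.11 in 1-week controls, and *Cnn1* 7.93 to 8.19 in 4-week controls and 9.73 to 11.03 in 1-week controls. *Fbxl22*, an F-box protein of striated muscle discs, fell by 2.48 ± 0.25, and *Mrgprf*, an orphan receptor, by 2.32 ± 0.17 with both of its probe sets called lower.

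*Stra6*, the membrane receptor for vitamin A bound to its carrier, read 3.87, 4.08, 3.58, 3.53 and 3.90 in 4-week controls, against 7.08, 6.05, 7.74, 7.56 and 5.64 in 1-week controls. All 5 of its probe sets were called lower, and the change was -3.02 ± 0.29. *Krt17*, a keratin of basal and injured epithelium, fell by 2.85 ± 0.31. *Ptges*, which makes prostaglandin E2, fell by 2.53 ± 0.23, and *Kazald1*, a secreted protein with a domain of insulin-like growth factor binding proteins, fell by 2.40 ± 0.19. In each of these genes the arrays of both times did not overlap, which was a condition of their choice.

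The largest rise was that of *Hars1*, the enzyme that loads histidine onto its tRNA. It read 7.41, 7.63, 7.85, 7.35 and 7.26 in 4-week controls, against 5.01, 4.89, 4.78, 4.99 and 4.79 in 1-week controls, a change of 2.61 ± 0.28 (limma adjusted p = 2.79e-11) with both probe sets called higher. Both groups were tight and lay far apart. *Ankrd1*, a protein of stretched heart and other muscle, read 9.01, 8.65, 7.48, 8.10 and 8.82 in 4-week controls, against 5.25, 5.66, 4.13, 6.72 and 7.40 in 1-week controls, a change of 2.58 ± 0.44. Here the 1-week controls were scattered and their highest array almost met the lowest 4-week array, and the change without single arrays was between 2.16 and 2.97.

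*Fgg*, the gamma chain of fibrinogen, read 10.04, 9.56, 9.57, 9.98 and 9.80 in 4-week controls, against 7.10, 7.92, 7.36, 7.08 and 8.48 in 1-week controls, a change of 2.20 ± 0.21. *Igsf6*, an immunoglobulin-type receptor of myeloid cells, changed by 2.23 ± 0.25, and *Gzma*, a protease of killer lymphocyte granules, by 2.12 ± 0.25. *Gzma* read 7.43 to 8.42 in 4-week controls and 4.96 to 6.61 in 1-week controls. Genes of mitochondria and of fuel use were also among the 12 largest rises. *Eci2*, an isomerase for unsaturated fatty acids, rose by 2.03 ± 0.14, *Etfrf1*, a regulator of electron transfer from fatty acids, by 1.96 ± 0.14, and *Ndufs1*, the largest subunit of respiratory complex I, by 1.92 ± 0.14. *Ndufs1* read 9.50 to 9.63 in 4-week controls and 7.33 to 8.01 in 1-week controls. *Ppp1r3b*, which directs a phosphatase to glycogen, rose by 2.09 ± 0.17 and had 1 of its 2 probe sets called. *Snx19*, a sorting nexin, *Ccdc68*, a coiled-coil protein, and *Ociad2*, a mitochondrial membrane protein, rose by 2.08 ± 0.17, 1.99 ± 0.25 and 1.93 ± 0.16.

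**Figure D2:**
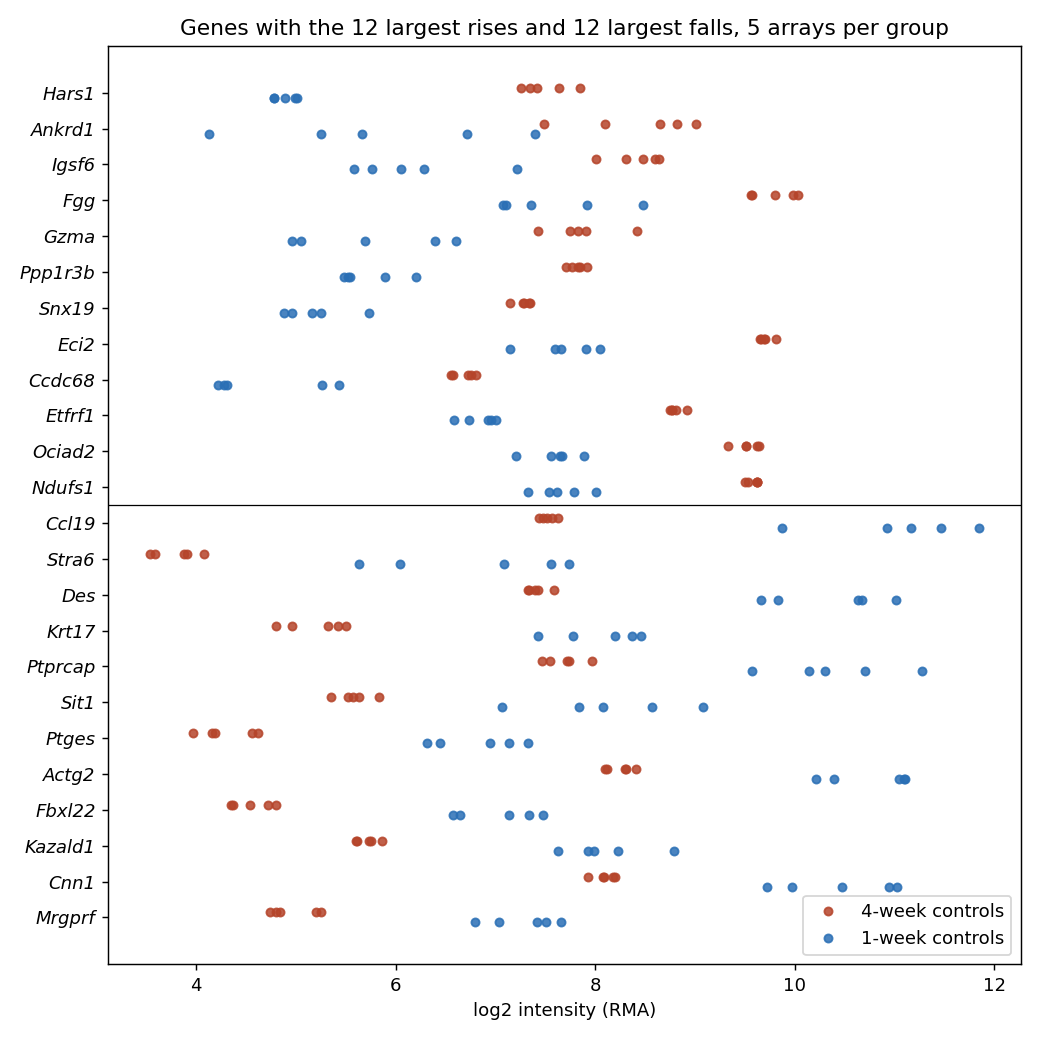
Log2 intensity (RMA) of the 12 genes with the largest rises, above the line, and the 12 with the largest falls, below it, in controls, 1 point per array and 5 arrays per group. Arrays of 4-week and 1-week controls did not overlap in any of the 24 genes, a condition of the choice, and *Ankrd1* shows the widest scatter among 1-week controls.

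Genes were then grouped into 78 lists of cell types, structures and pathways, of which 1236 of 1504 symbols were measured. Each list is given by the number of measured genes called in each direction and by the median change of its measured genes. A median under another scaling of the arrays stands beside it where that scaling turned its sign, or where it shrank by more than 1.5 times with arrays centred within bins of gene length (by gene length) or normalized to each other by cyclic loess. Smooth muscle genes fell as a majority. Of 14 measured, 8 fell (57.1%, background 38.2%) and 3 rose (21.4%, background 35.2%), with a median change of -1.27 (-0.79 by gene length), and all 8 falls also passed beyond 1.5-fold. *Acta2*, the alpha actin of smooth muscle, read 6.13 to 6.48 in 4-week controls and 7.87 to 8.92 in 1-week controls, and *Tagln*, the actin-binding protein transgelin, changed by -1.49 ± 0.15. *Myh11*, the myosin heavy chain of the same cells, was 9.61 ± 0.14 in 4-week controls and 9.83 ± 0.20 in 1-week controls (SD, n = 5 each) and did not pass (change -0.22 ± 0.19). *Ldb3*, a protein of striated muscle discs that was counted in this list, rose by 1.12 ± 0.27. The part of heart muscle content in its change was not tested. *Hhip*, an inhibitor of hedgehog signals, rose by 0.48 ± 0.15, and *Mylk*, the kinase that triggers contraction, by 0.38 ± 0.12. Among 10 pericyte genes 6 fell and 2 rose (median -0.68, and -0.24 by gene length). *Pdgfrb*, the growth factor receptor of mural cells, changed by -1.86 ± 0.14 with all 3 probe sets called lower, *Cspg4*, a proteoglycan of these cells, by -1.37 ± 0.16, and *Rgs5*, a brake on G protein signals in pericytes, by 1.35 ± 0.18.

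Several matrix lists held mostly falls, where 38.2% of all genes fell and 35.2% rose. Of 18 collagen genes 10 fell and 3 rose (median -0.80), led by *Col6a2* (-2.11 ± 0.14), *Col18a1* of basement membranes (-2.04 ± 0.16) and *Col1a1*, a chain of the main fibrillar collagen (-1.90 ± 0.19, both probe sets lower). *Col12a1*, a collagen that sits on fibril surfaces, rose by 0.82 ± 0.16. Of 14 genes that process or crosslink collagen 10 fell and 2 rose (median -0.68), among them *Loxl1*, a crosslinking oxidase (-1.57 ± 0.13), and *Pcolce*, which speeds the trimming of procollagen (-1.55 ± 0.13). The 15 elastic fibre genes included 10 that fell and 3 that rose (median -1.02). *Eln*, which encodes elastin itself, read 7.89, 8.08, 7.89, 8.05 and 7.71 in 4-week controls, against 9.14, 9.23, 8.46, 9.32 and 9.19 in 1-week controls. The groups did not overlap, 1-week replicate 3 was the low array of its group, and the change was -1.14 ± 0.29. Fibulin 1 (*Fbln1*), emilin 1 (*Emilin1*) and microfibril protein 2 (*Mfap2*), all parts of or partners to elastic fibres, changed by -1.99 ± 0.15, -1.85 ± 0.14 and -1.80 ± 0.15, and *Efemp1*, a fibulin, rose by 0.83 ± 0.12.

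Other matrix lists were mixed, where 35.2% of all genes rose and 38.2% fell. Of 23 matrix glycoproteins and proteoglycans 8 rose and 6 fell (median 0.20, and 0.02 by cyclic loess), with *Postn*, the adhesion protein periostin, at 1.03 ± 0.18 and *Hspg2*, the basement membrane proteoglycan perlecan, at -1.86 ± 0.12. Matrix proteases and inhibitors had 8 rises and 7 falls among 20 (median 0.09, and 0.015 by cyclic loess), and *Mmp2*, a gelatinase, changed by -1.20 ± 0.12. Of 15 fibroblast genes 7 fell and 3 rose (median -0.24): *Thy1*, a surface protein of fibroblasts and T cells, changed by -1.06 ± 0.15, whereas *Pdgfra*, a growth factor receptor, and *Dcn*, the proteoglycan decorin, rose by 0.55 ± 0.16 and 0.53 ± 0.10. Of 5 mesothelial genes 3 fell and 1 rose (median -0.25, and -0.14 by gene length). *Msln*, the surface protein mesothelin, changed by -1.20 ± 0.15, and *Gpm6a* rose by 1.64 ± 0.29. Among 11 cartilage genes 4 fell and none rose (median -0.18, and -0.07 by gene length). None of the 9 skeletal muscle genes was called in either direction (median -0.30, and -0.14 by gene length), although all 9 changes were negative. The mean of these 9 genes, relative to all control arrays, lay between -0.35 and -0.06 in 4-week controls and between 0.12 and 0.34 in 1-week controls, without overlap. In a model of the 10 control arrays alone, 4 of the 9 were called lower, and with array weights 2.

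Heart muscle genes were scattered in the 1-week controls. Of 17 measured, 6 rose (35.3%) and 1 fell (5.9%), a share of rises at the background, with a median of 0.46. *Myh6*, the alpha myosin heavy chain of heart muscle, read 10.45, 9.96, 9.24, 9.42 and 10.57 in 4-week controls, against 7.89, 8.00, 3.54, 9.18 and 9.76 in 1-week controls. The groups overlapped, and 1-week replicate 3 was far below the other arrays of its group. The mean of the 17 genes, relative to all control arrays, was between -0.19 and 0.83 in 4-week controls and between -1.73 and 0.69 in 1-week controls. Without single arrays, between 6 and 10 members were called, and 11 rises and no fall when arrays were centred by gene length. The part of heart muscle content in the change of *Ankrd1*, a member of this list, was not tested.

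Most measured genes of T cells, and 5 of 7 of B cells, were lower in the 4-week controls. None of 17 measured T cell genes rose and 13 fell (76.5%, background 38.2%), with a median of -0.64, although only 4 fell beyond 1.5-fold, and with arrays centred by gene length 8 fell and 2 rose. *Cd5*, a receptor that tunes T cell signals, read 5.82, 5.66, 5.49, 5.83 and 5.64 in 4-week controls, against 7.75, 7.65, 8.33, 7.36 and 6.81 in 1-week controls, a change of -1.89 ± 0.24. *Cd6*, a related receptor, changed by -1.78 ± 0.18 and *Lck*, the kinase next to the T cell receptor, by -1.77 ± 0.20. *Cd3e*, a chain of the receptor complex, overlapped between the times at -0.73 ± 0.26. Of 7 B cell genes 5 fell and 1 rose (median -1.13). *Blk*, a kinase of B cells, fell by 2.06 ± 0.25, *Cd79b*, a signalling chain of the B cell receptor, by 1.79 ± 0.30, and *Bank1*, a B cell scaffold protein, rose by 1.14 ± 0.20. The mean of the B cell list lay between -0.66 and -0.29 in 4-week controls and between -0.34 and 1.25 in 1-week controls, with the lowest 1-week value in replicate 5, inside the range of 4-week controls. Leaving out single arrays gave 9 to 14 calls among T cell genes and 5 to 7 among B cell genes. The part of lymphoid tissue content in the changes of *Ccl19*, *Ptprcap* and *Sit1* was not tested.

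Lists of antigen presentation also held more falls than rises, where 38.2% of all genes fell and 35.2% rose. In the MHC class II list 6 of 11 fell and 2 rose (median -0.51, and -0.05 by gene length), led by *RT1-DMa*, which helps load peptides (-1.90 ± 0.14), and *Ciita*, the master regulator of class II genes (-1.90 ± 0.21). In the class I list 8 of 12 fell and 2 rose (median -0.80, and -0.29 by gene length), with *Tapbp* and *Tap1*, which supply peptides to class I molecules, at -1.82 ± 0.13 and -1.52 ± 0.15. *B2m*, the shared light chain of class I, rose by 0.28 ± 0.05. Of 6 dendritic cell genes 3 fell and 1 rose (median -0.44, and -0.04 by gene length), among them *Ccl17*, a chemokine for T cells (-1.87 ± 0.24). Chemokines as a whole had 6 rises and 9 falls among 28, and their share of falls (32.1%) was below that of all genes. Their median was -0.03, and 0.48 when arrays were centred within bins of gene length. *Ccl6*, a chemokine of rodent macrophages, rose by 1.27 ± 0.17. Cytokines and innate signals had 7 rises and 7 falls among 22 (median 0.12), from *Nfkb2* and *Relb*, subunits of the non-canonical NF-kB factor (-2.19 ± 0.15 and -1.75 ± 0.17), to *Il1a*, the cytokine interleukin 1 alpha (1.71 ± 0.20).

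Among other leukocyte lists, those of NK cells, neutrophils and alveolar macrophages held more rises than falls, and the rest more falls. These compare with 35.2% of all genes that rose and 38.2% that fell. Of 11 NK and cytotoxic cell genes 6 rose and 3 fell (median 0.35): *Gzmb*, another granule protease, rose by 1.36 ± 0.24, whereas *Gzmm*, of the same family, changed by -1.53 ± 0.19. Of 10 neutrophil genes 5 rose and none fell (median 0.25), with *Cxcr1*, a chemokine receptor, at 1.64 ± 0.24 and *S100a8*, a calcium-binding protein of neutrophil cytosol, at 1.27 ± 0.26. Without 1-week replicate 1, or without 4-week replicate 1, 3 neutrophil genes were called. Among 8 alveolar macrophage genes 4 rose and 1 fell (median 0.49), with *Pparg*, a transcription factor that these cells need, at 1.17 ± 0.18 and *Mrc1*, the mannose receptor, at 1.07 ± 0.16. The fall was that of *Cidec*, at -1.31 ± 0.48. The means of the NK, neutrophil and alveolar macrophage lists overlapped between the times. Their lowest 4-week control arrays were at -0.157, -0.0028 and 0.026, and their highest 1-week control arrays at 0.113, -0.0022 and 0.112. The list of interstitial macrophages and monocytes held 2 rises and 7 falls among 14, with a median of -0.17 that was 0.06 when centred by gene length, and its leading fall was *C1qb*, a chain of complement C1q (-1.81 ± 0.16). Its rises were *Fcgr3a* (1.13 ± 0.19) and *Cd163* (0.81 ± 0.21). Mast cell genes had 3 rises and 4 falls among 9 (median -0.26, and 0.05 when centred by gene length), with the mast cell tryptase *Tpsb2* at -1.90 ± 0.18. Their rises were *Cpa3* (0.77 ± 0.20), *Kit* (0.34 ± 0.12) and *Ms4a2* (0.23 ± 0.10). Plasma cell genes had 1 rise and 3 falls among 8 (median -0.16, and 0.17 by gene length).

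Complement genes were split, with 6 rises and 7 falls among 17 (median -0.09, and 0.14 by gene length), where 35.2% of all genes rose and 38.2% fell. *C5*, the complement protein cut to release the anaphylatoxin C5a, read 7.79, 7.37, 7.46, 7.74 and 7.72 in 4-week controls, against 5.24, 6.00, 5.57, 5.46 and 6.54 in 1-week controls. The groups did not overlap and the change was 1.85 ± 0.23. Interferon-induced genes had 8 rises and 8 falls among 27 (median 0.27, and 0.14 by cyclic loess). The counts were 13 rises and 7 falls in a model of the 10 control arrays alone, and 18 and 3 by gene length. *Rsad2*, an antiviral enzyme, rose by 1.56 ± 0.21 while *Irf7*, an interferon regulatory factor, fell by 1.53 ± 0.22. Of 17 acute-phase and secreted defence genes 4 rose and 6 fell (median -0.19, and 0.29 by gene length). Red blood cell genes had 2 rises and 2 falls among 7 (median -0.09, and 0.12 by gene length), and platelet genes 3 falls and no rise among 6 (median -0.19, and 0.43 by gene length).

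The distal epithelium moved in both directions, where 35.2% of all genes rose and 38.2% fell. Of 15 alveolar type 2 genes 8 rose and 4 fell (median 0.16, and 0.03 by cyclic loess). *Lamp3*, a protein of lamellar bodies, rose by 1.07 ± 0.16 and surfactant protein A (*Sftpa1*) by 0.79 ± 0.09, with both probe sets of *Sftpa1* called. Surfactant protein B (*Sftpb*) changed by -0.39 ± 0.10, and *Napsa*, the protease that trims it, by -0.58 ± 0.13. Of 13 type 1 genes 6 rose and 3 fell (median 0.23, and 0.05 by cyclic loess), with the caveolar protein *Cav1* at 1.09 ± 0.14 and the water channel *Aqp5* at -0.90 ± 0.09. Club cell genes had 3 rises and 3 falls among 9 (median -0.03, and 0.31 by gene length). *Gsta3*, a glutathione transferase of these cells, rose by 1.35 ± 0.18. Ciliated cell genes had 3 rises and 3 falls among 11 (median 0.17, and 0.03 by cyclic loess), and *Tekt1*, a filament protein of cilia, rose by 1.06 ± 0.13 while *Foxj1* changed by -0.88 ± 0.13. Goblet cell and gland genes had 1 rise and 2 falls among 10 (median -0.06, and 0.33 by gene length), with the goblet cell factor *Spdef* at -1.23 ± 0.17.

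Basal and squamous genes held no rise and 4 falls among 9, where 35.2% of all genes rose and 38.2% fell. They held 7 falls in a model of the 10 control arrays alone. Their median was -0.43, but 0.18 when arrays were centred by gene length. The keratins *Krt17*, *Krt14* and *Krt5*, which mark basal cells, changed by -2.85 ± 0.31, -1.72 ± 0.31 and -1.46 ± 0.36. Neuroendocrine genes had 2 rises and 3 falls among 8 (median -0.05, and 0.24 by gene length), and 3 calls without 4-week replicate 3. Airway and alveolar ion transport genes had 8 rises and 6 falls among 18 (median 0.27). Within the epithelial sodium channel *Scnn1g* rose by 0.97 ± 0.11, against -1.01 ± 0.15 for *Scnn1b*, which encodes another subunit.

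Endothelial genes were also divided, where 35.2% of all genes rose and 38.2% fell. Among 13 genes of general capillaries 5 rose and 6 fell (median -0.26, and 0.07 by gene length). The receptors *Tek* and *Kdr*, for angiopoietins and for vascular endothelial growth factor, rose by 1.56 ± 0.19 and 1.42 ± 0.18, and *Gpihbp1*, which carries lipoprotein lipase across capillaries, changed by -0.91 ± 0.18. Aerocyte genes, of the capillary cells that serve gas exchange, had 3 rises and 4 falls among 8 (median 0.07, and -0.10 by cyclic loess). Of 8 lymphatic genes 5 rose and 2 fell (median 0.65), with *Mmrn1*, a secreted multimerin, at 1.13 ± 0.18 and the hyaluronan receptor *Lyve1* at 1.07 ± 0.14. The falls were the chemokine *Ccl21* (-0.79 ± 0.13) and the lymphatic factor *Prox1* (-0.28 ± 0.09). Angiogenic signals had 8 rises and 4 falls among 16 (median 0.34, and 0.18 by cyclic loess). Adipocyte genes had 1 rise and 4 falls among 11, and 7 falls in a model of the 10 control arrays alone (median -0.47, and -0.05 by gene length), with *Cfd*, the fat cell protease adipsin, at -1.48 ± 0.26. Nerve and Schwann cell genes had 1 rise and 4 falls among 8 (median -0.34, and 0.20 by gene length).

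Mitosis genes rose more often than they fell, and DNA replication genes were split. Of 34 mitosis genes 16 rose and 4 fell (47.1% and 11.8%, against 35.2% and 38.2% of all genes, median 0.36). Means of the mitosis list lay between 0.09 and 0.25 in 4-week controls, against -0.27 to -0.04 in 1-week controls. *Cenpf*, a kinetochore protein, rose by 1.21 ± 0.15 and *Nusap1*, a spindle protein, by 1.16 ± 0.19, whereas *Cdc20*, an activator of the anaphase ligase, fell by 1.16 ± 0.21. Of 27 genes of DNA replication 12 rose and 10 fell (median -0.03, and 0.33 by gene length). The subunits of ribonucleotide reductase, *Rrm1* and *Rrm2*, rose by 1.40 ± 0.16 and 1.35 ± 0.22. The thymidine kinase *Tk1* and the helicase subunits *Mcm2* and *Mcm5* changed by -1.07 ± 0.18, -1.23 ± 0.13 and -1.05 ± 0.17. p53 targets had 8 rises and 6 falls among 15 (median 0.41), with *Gdf15*, a stress cytokine, at -2.25 ± 0.22, the cell cycle inhibitor *Cdkn1a* at -1.59 ± 0.15, and *Mdm2*, the ligase that destroys p53, at 1.03 ± 0.12. Of 17 senescence and ageing markers 4 rose and 8 fell (median -0.20, and -0.04 by gene length).

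Growth genes moved in both directions within their lists, where 35.2% of all genes rose and 38.2% fell. Means of the imprinted list lay between -0.15 and -0.07 in 4-week controls, against 0.07 to 0.12 in 1-week controls. For the insulin-like growth factor axis they lay between -0.26 and -0.06, against 0.06 to 0.23. Means of the Wnt, Notch, retinoid and sex steroid lists did not overlap between the times either. Those of the TGF beta and BMP list overlapped. Among 16 imprinted and juvenile growth genes 4 rose and 7 fell (median -0.10), with the imprinted growth suppressor *Ndn* at -1.42 ± 0.13 and *Cdkn1c*, an imprinted cell cycle inhibitor, at -1.12 ± 0.12. In the insulin-like growth factor axis 5 of 16 rose and 7 fell (median -0.05, and -0.01 by cyclic loess). The ligand *Igf1* and the growth hormone receptor *Ghr* rose by 0.71 ± 0.17 and 0.72 ± 0.13, while the receptor *Igf1r* changed by -1.52 ± 0.13. Signals of TGF beta and BMP had 10 rises and 9 falls among 25, with a median of 0.05 that was -0.03 by cyclic loess, from *Tgfb1*, a ligand that induces matrix genes (-2.07 ± 0.14), to *Bmpr2*, a BMP receptor (1.20 ± 0.20). Wnt genes had 4 rises and 6 falls among 17 (median -0.18), *Wnt4*, a ligand, at -1.57 ± 0.12. Of 26 genes of Notch, hedgehog and FGF signals 16 fell and 5 rose (median -0.43, and -0.26 by gene length). The Notch ligand *Jag2* changed by -1.75 ± 0.14, and the receptor *Fgfr2* by 0.97 ± 0.08 with 2 of 5 probe sets called higher and 1 called lower. Retinoid genes had 3 rises and 11 falls among 18 (median -0.30, and -0.0046 by gene length), where *Crabp1*, a carrier of retinoic acid in cells, changed by -1.63 ± 0.23. Sex steroid response genes had 4 rises and 3 falls among 14, with a median of -0.03 that was 0.02 after quantile normalization.

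**Figure D3:**
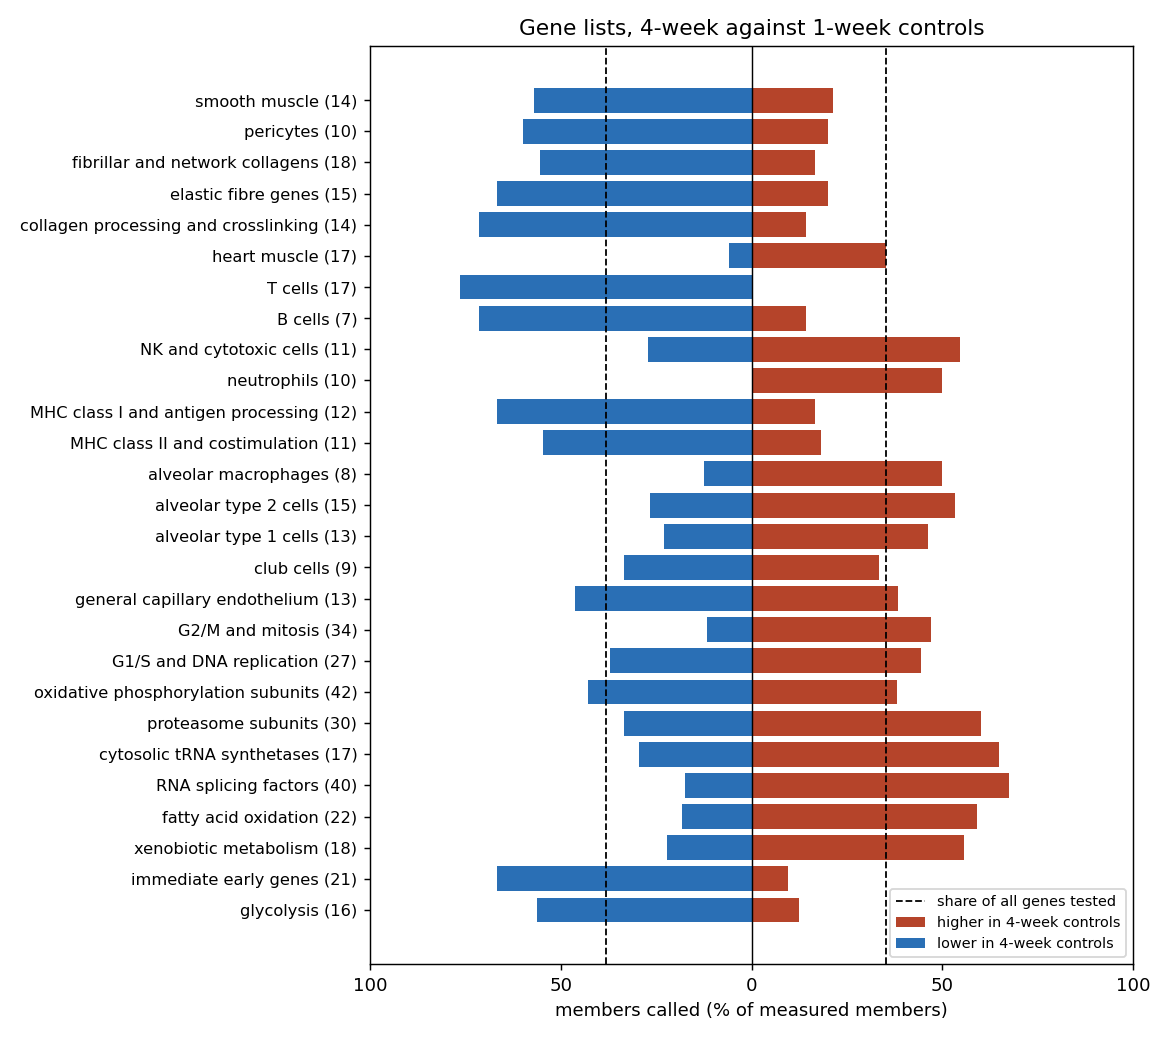
Share of measured members called higher (right) and lower (left) in 4-week controls, in percent, for 27 of the 78 gene lists, with the number measured in brackets. Dashed lines are the shares of all genes tested, 35.2% higher and 38.2% lower. Falls of T cell, collagen, elastic fibre and immediate early genes lie past the left line, and rises of splicing factors and tRNA synthetases past the right one.

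Immediate early genes, which cells switch on within minutes of a stimulus, had 14 falls and 2 rises among 21 (median -0.69), where 38.2% of all genes fell and 35.2% rose. They had 10 falls and 7 rises by gene length (median -0.21). The AP-1 subunit *Junb* read 5.58, 5.80, 5.76, 5.91 and 5.78 in 4-week controls, against 8.05, 7.43, 8.08, 7.79 and 7.41 in 1-week controls. The groups were far apart, with a change of -1.99 ± 0.12 (limma adjusted p = 8.17e-18). *Ccn1*, a matricellular protein, changed by -1.84 ± 0.14. Heat shock genes and chaperones had 9 rises and 4 falls among 14 (median 0.33, and 0.17 by cyclic loess). The falls included *Hspa1a*, the inducible chaperone HSP70, at -1.98 ± 0.16. Unfolded protein and stress response genes had 12 rises and 9 falls among 24 (median 0.28, and 0.12 by cyclic loess), from *Pdia3*, a disulfide isomerase (1.54 ± 0.14), to the kinase-like *Trib3* (-1.38 ± 0.15). The hypoxia list had 5 rises and 6 falls among 20, with a median of 0.01 that was -0.05 when arrays were centred on their median.

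Clock genes were read at an unknown hour of the day. Of 18 measured 7 rose and 8 fell (median 0.09, and -0.21 by gene length), where 35.2% of all genes rose and 38.2% fell. *Per1*, a clock repressor, read 7.34, 7.90, 8.10, 8.32 and 8.25 in 4-week controls, against 9.46, 9.19, 9.53, 9.35 and 9.21 in 1-week controls, without overlap. *Nr1d1*, another repressor of the clock, changed by -1.35 ± 0.12, and *Bmal1*, the activator that it represses, rose by 0.60 ± 0.12. Glucocorticoid-responsive genes had 5 rises and 7 falls among 18 (median -0.07, and 0.31 by gene length).

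Lists of cell machinery were called in large part, as were 73.5% of all genes, and often in both directions within 1 complex. Among all genes 35.2% rose and 38.2% fell. The oxidative phosphorylation list, with 38.1% higher and 42.9% lower, was near these shares. Of 42 subunits of oxidative phosphorylation 16 rose and 18 fell (median -0.04, and 0.46 by gene length). In complex I *Ndufs1* rose by 1.92 ± 0.14, while *Ndufs8* and *Ndufv1* changed by -1.44 ± 0.12 and -1.41 ± 0.11. *Ndufs8* read 8.61, 8.68, 8.75, 8.74 and 8.62 in 4-week controls, against 10.08, 9.91, 10.30, 10.37 and 9.92 in 1-week controls. Both genes separated the groups, in opposite directions. Of 30 proteasome subunits 18 rose and 10 fell (median 0.28, and 0.10 by cyclic loess), for example *Psma4* at 1.19 ± 0.11 and *Psmd3* at -1.04 ± 0.09. Of 17 cytosolic tRNA synthetases 11 rose and 5 fell (median 0.65), with *Hars1* highest and *Vars1*, the valine enzyme, lowest at -1.87 ± 0.12. Mitochondrial ribosome and import genes had 12 rises and 14 falls among 29 (median -0.11, and 0.39 by gene length), and ribosome biogenesis genes 16 and 11 among 29 (median 0.37, and 0.21 by cyclic loess). Cytosolic ribosomal proteins had 12 rises and 10 falls among 27 (median 0.02, 0.63 by gene length and -0.12 by cyclic loess).

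Splicing factors rose in 27 of 40 (67.5%, background 35.2%) and fell in 7 (median 0.44, and 0.28 by cyclic loess), with 4 rises and 5 falls beyond 1.5-fold. *Sf3a3*, a part of the U2 particle, rose by 1.10 ± 0.12, and *Snrpa*, a part of the U1 particle, changed by -1.35 ± 0.13. Chromatin regulators and histone chaperones rose in 18 of 30 and fell in 8 (median 0.38), and rose in 9 and fell in 9 by gene length (median 0.06). *Smarca2*, an ATPase of the SWI/SNF remodeller, rose by 0.98 ± 0.11 with all 3 probe sets called, and *Smarca4*, the alternative ATPase of that complex, changed by -0.74 ± 0.09.

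In metabolism, where 35.2% of all genes rose and 38.2% fell, the lists differed. Fatty acid oxidation genes rose in 13 of 22 and fell in 4 (median 0.58), among them *Etfdh*, which passes their electrons to the respiratory chain, at 1.46 ± 0.15. Glycolysis genes had 2 rises and 9 falls among 16 (median -0.50, and -0.31 by gene length). *Pfkl*, a phosphofructokinase, changed by -1.44 ± 0.14 and *Pkm*, a pyruvate kinase, by -1.12 ± 0.13. Cholesterol synthesis genes had 9 rises and 8 falls among 18 (median 0.24, and 0.12 by cyclic loess), *Sc5d* at 1.34 ± 0.13 and *Mvd* at -1.73 ± 0.15, both enzymes of the pathway. Fatty acid synthesis and surfactant lipid genes had 6 rises and 8 falls among 22 (median 0.05, and -0.26 by gene length), and *Srebf1*, a transcription factor of lipid synthesis, changed by -1.71 ± 0.14. Of 18 genes of xenobiotic metabolism 10 rose and 4 fell (median 0.54). The rises included the oxidases *Cyp3a9* (1.56 ± 0.18), *Fmo1* (1.46 ± 0.17) and *Cyp2e1* (1.40 ± 0.20). *Por*, the reductase that feeds electrons to cytochrome P450 enzymes, changed by -1.42 ± 0.11.

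Defences against oxidants and metals were mixed, where 35.2% of all genes rose and 38.2% fell. Glutathione transferases had 6 rises and 7 falls among 16 (median 0.14, and -0.05 by cyclic loess). NRF2 targets had 8 rises and 6 falls among 19 (median 0.19, and 0.08 by cyclic loess), with *Gclc*, the first enzyme of glutathione synthesis, at 1.01 ± 0.12. Antioxidant enzymes had 8 rises and 10 falls among 19 (median -0.39, and 0.19 by gene length). Metal binding and transport genes had 7 rises and 4 falls among 16 (median -0.06, and 0.41 by gene length), and *Slc39a8*, a zinc and manganese importer, rose by 1.64 ± 0.22.

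The same step from 1 to 4 weeks could be read at each concentration. The exposed arrays did not enter the control means, but all groups shared the variances of 1 model, and a model of the 10 control arrays alone called 10018 genes. The number of genes called between 4 weeks and 1 week was 10805 (80.4%) at 0.04 mg/m3, 8185 (60.9%) at 0.08, 6514 (48.5%) at 0.15 and 7226 (53.8%) at 0.60. Of the 4734 genes that rose in controls, 89.0% also rose at 0.04 mg/m3, 60.8% at 0.08, 33.4% at 0.15 and 37.1% at 0.60, against 36.0%, 24.8%, 14.1% and 16.5% of all genes. Of the 5139 that fell in controls, 90.5%, 76.6%, 63.8% and 66.7% also fell at 0.04, at 0.08, at 0.15 and at 0.60 mg/m3, against 44.4%, 36.1%, 34.4% and 37.2% of all genes. As a share of the genes that rose at 0.04, at 0.08, at 0.15 and at 0.60 mg/m3, 87.1%, 86.3%, 83.6% and 79.1% had also risen in controls. Among all genes 35.2% had risen in controls. Of the genes that rose in controls, 13.2% fell at 0.15 mg/m3 and 15.2% at 0.60 mg/m3, below the 34.4% and 37.2% of all genes.

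The difference between the control change and the change at a concentration was then tested as such. It passed in 1613 genes (12%) at 0.04 mg/m3, 5964 (44.4%) at 0.08, 7629 (56.8%) at 0.15 and 7616 (56.7%) at 0.60, by limma with adjusted p under 0.05. These tests share the control arrays. Over the 4 concentrations together, the change with time differed between the groups in 9582 genes (71.3%). Concentration and any batch in which the groups were handled cannot be told apart. On the line between the controls, the exposed 4-week groups lay at 0.838, 0.858, 1.03 and 0.995 for 0.04, for 0.08, for 0.15 and for 0.60 mg/m3, against -0.141, 0.374, 0.743 and 0.672 for the exposed 1-week groups. The 1-week arrays at 0.08 mg/m3 were strung out between -0.006 and 0.700.

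Of the 24 genes with the largest changes in controls, 23 had a change with time that differed across concentrations, against 71.3% of all genes. Only *Igsf6* did not pass (adjusted p = 0.053, limma). The 24 were chosen by the size of the control change, which is part of this test, so a high share was favoured by the choice. *Hars1* rose by 2.79 at 0.04 mg/m3 and by 0.84 at 0.08, and was at -0.27 and -0.22, not passing, at 0.15 and 0.60. Its 1-week level was 4.89 ± 0.11 in controls and 4.69 ± 0.42, 6.44 ± 1.31, 7.60 ± 0.07 and 7.31 ± 0.25 at 0.04, at 0.08, at 0.15 and at 0.60 mg/m3 (SD, n = 5 each), so the 1-week groups at both higher concentrations stood near the 7.50 ± 0.24 of the 4-week controls. *Ccl19* behaved in another way: its change was -0.01 at 0.04 mg/m3, with 10.03 ± 0.18 at 4 weeks and 10.04 ± 0.69 at 1 week. The 4-week level of *Ccl19* was 7.52 ± 0.07 in controls and 10.03 ± 0.18, 9.39 ± 0.80, 8.27 ± 0.59 and 9.14 ± 0.44 at 0.04, at 0.08, at 0.15 and at 0.60 mg/m3. The 4-week control arrays of *Ccl19* ran to 7.63, and the 4-week arrays at 0.15 mg/m3 began at 7.63.

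**Figure D4:**
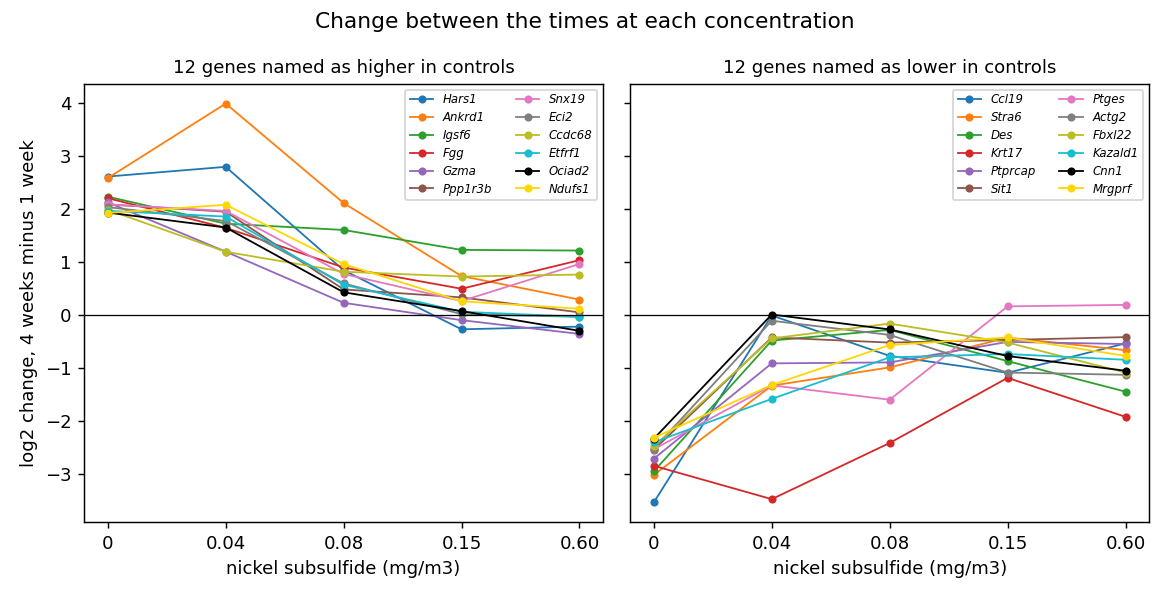
Log2 change between 4 weeks and 1 week against the nickel subsulfide concentration, with controls at 0 mg/m3, for the 12 genes with the largest rises (left) and the 12 with the largest falls (right) in controls, 1 line per gene and 5 arrays per group and time. *Hars1* was at -0.27 at 0.15 mg/m3, and *Ccl19* at -0.01 at 0.04 mg/m3.

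Counts in whole lists differed by concentration as well. Among all genes, rises took 36.0%, 24.8%, 14.1% and 16.5% at 0.04, at 0.08, at 0.15 and at 0.60 mg/m3. Falls took 44.4%, 36.1%, 34.4% and 37.2% of all genes at the same concentrations. Smooth muscle genes, with 3 rises and 8 falls among 14 in controls, had 7 rises and 2 falls at 0.04 mg/m3, 5 and 0 at 0.08, 0 and 7 at 0.15, and 1 and 7 at 0.60. The change at 0.04 mg/m3 differed from that in controls in 13 of the 14 (background 12%). *Des* averaged 7.41 ± 0.11 in 4-week controls, against 9.12 ± 0.23, 8.97 ± 0.65, 7.35 ± 0.17 and 7.34 ± 0.33 in the 4-week groups at 0.04, at 0.08, at 0.15 and at 0.60 mg/m3. T cell genes had no rise and 13 falls among 17 in controls, and 9 rises and 4 falls at 0.04 mg/m3, with 14 of the 17 differing from controls. B cell genes had 6 rises and no fall among 7 at 0.04 mg/m3, and 6 of the 7 differed from controls. *Cd79b* rose by 0.83 at 0.04 mg/m3, against its fall by 1.79 in controls.

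Mitosis, proteasome and oxidative phosphorylation genes held mostly falls at 0.60 mg/m3, where 37.2% of all genes fell and 16.5% rose. Mitosis genes had 16 rises and 4 falls among 34 in controls, 16 and 9 at 0.04 mg/m3, 4 and 8 at 0.08, 3 and 17 at 0.15, and 2 and 20 at 0.60. The change at 0.60 mg/m3 differed from controls in 24 of them, against 56.7% of all genes. Proteasome genes had 18 rises and 10 falls among 30 in controls, and 2 rises and 18 falls at 0.60 mg/m3. Oxidative phosphorylation genes had no rise and 34 falls among 42 at 0.60 mg/m3, against 16 and 18 in controls. At that concentration splicing factors had 16 rises and 14 falls among 40, and cytosolic ribosomal proteins 1 rise and 12 falls among 27, so falls were no majority in either list. Chromatin regulators had more rises than falls at each concentration, with 22 and 4 of 30 at 0.04 mg/m3, 19 and 3 at 0.08, 15 and 7 at 0.15, and 16 and 4 at 0.60.

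A smaller number of genes moved the same way at every concentration. Rises at 4 weeks were called in controls and at all 4 concentrations in 1283 genes (9.55%), and falls in 2551 (19%). Those with the largest smallest change were picked after their values had been seen. *Mga*, a repressor that pairs with MAX, rose by 1.58 in controls and by 2.57, 1.76, 1.59 and 2.04 at 0.04, at 0.08, at 0.15 and at 0.60 mg/m3. *Gk*, which phosphorylates glycerol, rose by 1.48 in controls and by 1.28, 1.25, 1.45 and 1.48 at the same concentrations. *Ppargc1a*, a coactivator of mitochondrial genes, rose by 1.39 in controls and by 1.27, 1.11, 1.46 and 1.26. It read 4.75, 6.03, 5.60, 5.61 and 6.11 in 4-week controls, against 4.16, 4.23, 3.93, 4.34 and 4.47 in 1-week controls, without overlap. *Baz2b*, a bromodomain protein, *Zeb2*, a repressor of epithelial genes, *C5* and *Igsf6* were other rises of this kind, each by at least 1.08 in every pair.

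Among the common falls were genes of replication. *Tk1* fell by 1.07 in controls and by 1.58, 1.16, 1.16 and 1.64 at 0.04, at 0.08, at 0.15 and at 0.60 mg/m3, and *Cdt1*, which licenses replication origins, by 1.05 in controls and by 1.27, 1.01, 0.98 and 1.26. *Tk1* read 5.13, 5.09, 5.25, 5.41 and 5.23 in 4-week controls, against 5.96, 6.26, 6.59, 6.75 and 5.90 in 1-week controls. *Cdc20* was at -1.16 in controls and -1.44, -1.20, -0.97 and -1.49 at the same concentrations. *Ccno*, a cyclin-like protein of cells that build many cilia, fell by 1.87 in controls and by 2.02, 1.97, 1.22 and 1.72. *Krt17*, *Mfap2*, the membrane protein *Tmem54* and the airway serine protease *Prss22* also fell in all 5 pairs of groups.

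A property of the genes that the choice of arrays did not use moved with the change. Of the genes tested 13419 (99.9%) had a length in RefSeq's GRCr8 gene table. The median change in controls was -0.30 for 1848 genes under 5 kb, -0.26 at 5 to 10 kb, -0.16 at 10 to 20 kb, 0.02 at 20 to 40 kb, 0.23 at 40 to 80 kb and 0.29 for 2311 genes over 80 kb. Rises took 14% of the shortest and 51.1% of the longest class, and falls 54.4% and 17.5%. Across genes, which are not independent replicates and share arrays, Spearman's rho of length and change was 0.33 in controls and 0.36, 0.36, 0.28 and 0.33 at 0.04, at 0.08, at 0.15 and at 0.60 mg/m3. The part of gene length in the list results was not tested beyond the centring by length given beside them.

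**Figure D5:**
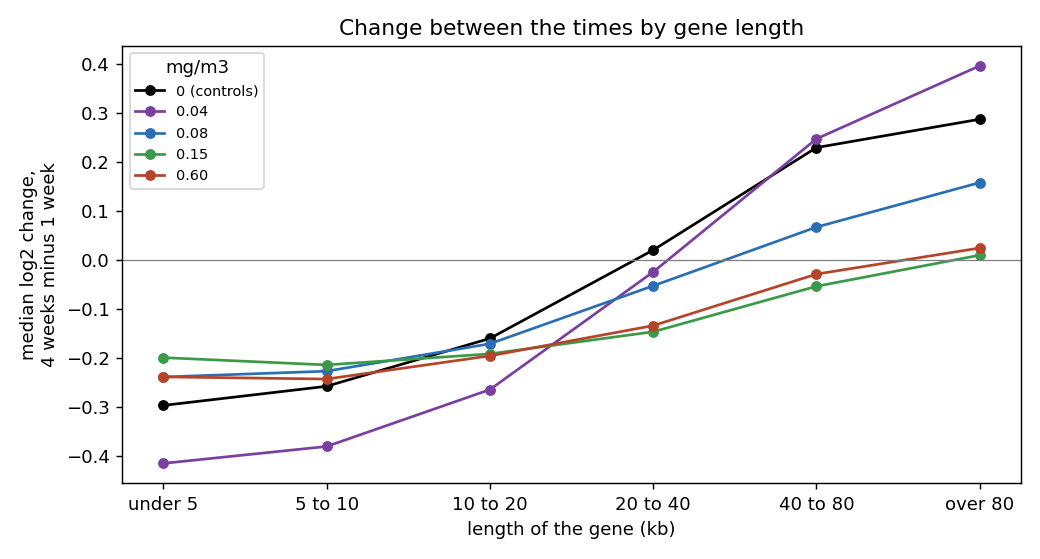
Median log2 change between 4 weeks and 1 week against the length of the gene in kb, 1 line per concentration with controls at 0 mg/m3, over 13419 genes. In controls the medians run between -0.30 for the shortest and 0.29 for the longest genes.

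Probe sets of the same gene did not always share a direction. In controls 2479 genes had at least 2 called probe sets, and in 283 of them (11.4%) the calls were opposite. The share was 16.3%, 8.77%, 5.40% and 4.73% for the same step at 0.04, at 0.08, at 0.15 and at 0.60 mg/m3. Between the 4-week groups at 0.60 mg/m3 and controls it was 2.24%, or 6 of 268 genes. Genes measured by a single probe set, among them *Ccl19*, *Des* and *Ndufs1*, have no such check.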

How the data were processed

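The deposited values are log2 intensities per probe set, made with RMA in Partek per the submitters' processing notes. Software versions, scan dates and which arrays were normalized as a set are not stated in the labels or files. It covers 31042 probe sets for 50 arrays, 1 animal per array by the labels' protocols, with values between 2.22 and 13.8, and no value was transformed again. The number of arrays, 5 a group, limits the precision. Any pair of arrays differed in at least 31031 probe sets.

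The platform's gene table gave 1 symbol to 19063 probe sets, several to 572 and none to 11407, and only those with 1 symbol were used. Where a gene had several probe sets, as 3985 did, the brightest by its mean across the 50 arrays stood for it. By gene identifier 18983 probe sets matched the current rat gene table, and 0 symbols changed.

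A linear model with 1 mean for each of 10 groups was fitted with limma 3.58.1 in R 4.3.3, with moderated variances, two-sided tests and Benjamini-Hochberg adjustment over 13438 genes within each contrast. A gene was called, and is said to have risen or fallen, at an adjusted p under 0.05. The script was tested on simulated data. Exact permutation tests were used for whole-array measures. Control probe sets of the array maker are not analysed here, so measures of RNA degradation from them were not made.

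Named genes are the called genes without overlap between the control groups that had the 12 largest changes in each direction, and up to 3 called members with the largest rise and 3 with the largest fall of each list. Symbols of uncharacterised loci were left out. *Sftpc*, *Scgb1a1*, *Acta2*, *Tagln*, *Myh11*, *Eln* and *Cd3e*, and the genes that moved at every concentration, fall outside this rule and were chosen after their values had been seen. The lists and named genes were chosen with earlier results of these data known. Alternatives were other normalizations, filters, weights and probe set choices, a replicate block, a smaller set of arrays, a minimum change and the omission of each control array in turn.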

Additional observations from a re-analysis of the deposited data

Results flagged for a closer look

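The change between 4 weeks and 1 week differed from that of controls, by a test of the difference itself, in 1613 genes at 0.04 mg/m3, 5964 at 0.08, 7629 at 0.15 and 7616 at 0.60. A joint test over the 4 concentrations passed in 9582 genes. It passed in 23 of the 24 genes with the largest control changes and in 116 of 139 other named genes that were checked, against 71.3% of all genes. Most of these genes were chosen by their control change, which is part of the test, so these counts are favoured by the choice.

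Single arrays stood off from the other 4 of their group in 15 of 326 combinations of gene and group, by a gap large against the range of the group. Chance gives such a gap in about 1 of 20 groups. In 4-week controls these were replicate 1 for *Gsta3* (8.50), *Igf1r* (6.53), *Spdef* (4.87), *Tagln* (10.56), *Tekt1* (10.04) and *Wnt4* (8.43), replicate 2 for *Cspg4* (4.66) and *Pdia3* (11.24), and replicate 3 for *Eci2* (9.82), *Rrm1* (7.30) and *Tpsb2* (4.49). In 1-week controls they were replicate 3 for *Dcn* (11.40) and *Eln* (8.46), and replicate 5 for *Ghr* (6.84) and *Mrc1* (8.997). On the line between the control groups, replicate 4 of the 1-week group at 0.15 mg/m3 lay at 0.639, below the other 4 arrays of that group.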

How the results depend on the processing

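All 528 alternative values of the 24 genes with the largest changes kept their direction and their call. These genes were chosen in the same arrays for large, called changes without overlap, so this is no independent check. When a change beyond 1.5-fold was required, 4486 genes were called, 1865 higher and 2621 lower in 4-week controls. Without single control arrays, between 9503 and 9840 genes were called, and the difference in array medians was between 0.0415 and 0.0662, no longer past its threshold in 5 of 10 such settings. List counts were within 1.5 times of the main count in 1625 of 1716 alternatives. Replicate numbers are shared by all groups, but same-numbered control arrays did not deviate together (correlations of -0.22, -0.20, 0.03, -0.27 and 0.21, and 1 of 5 correlated best with its own number), so they were not treated as pairs. With the replicate number as a block, 9864 genes were called, 4738 higher and 5126 lower, in 50 arrays, and 9740 in the 10 control arrays alone. Centring each array within 6 bins of gene length and cyclic loess were chosen after seeing the data. The gene-length centring put the median change of all genes at 0.10, against -0.04 as deposited, and the share of rises among calls at 54.9%, against 47.9%. It changed the sign of the median in 22 of 78 lists, those of basal cells (-0.43) and antioxidant enzymes (-0.39) among them, and any scaling in 28, so the direction of these lists depends on the scaling. In 16 others the median kept its sign under the gene-length centring but shrank by more than 1.5 times, and under cyclic loess in 18. With 5 arrays a group and no intensities of background probes, the lowest values could not be set against background.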
